A study of Homo sapiens with 8 samples.

Results

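The genes described here are the subunits of the transcription factor NF-kB and regulators that feed back on it, measured in human melanoma cells with and without introduced JMJD3. The 10 genes chosen by name were NFKB1, NFKB2, RELA, RELB, NFKBIA, BCL3, TNFAIP3, TNFAIP2, BIRC2 and BIRC3, and all probes carrying those symbols were taken. The platform annotation named 12 probes for 9 of them, out of 20046 named genes in the table. BIRC3 had no probe under its symbol in the annotation used, so its expression was not analysed and only its promoter is described. The cells were A375-LM3, derived from the human melanoma line A375, and their RNA was measured on Illumina HumanHT-12 V4 arrays, on which each probe gives 1 intensity per array. There were 4 groups of 2 arrays: tumor-dissociated cells expressing JMJD3, tumor-dissociated cells expressing vector, cultured cells expressing JMJD3 and cultured cells expressing vector. The titles give the JMJD3 groups the code WT. Tumor-dissociated cells had been isolated from a primary tumor that A375-LM3 cells formed and then grown for 3 passages, while cultured cells had been grown for 1 day, so growth in a tumor, dissociation and length of culture changed together. The promoter driving JMJD3, the number of tumors and clones, the host of the tumors and any pooling are unstated in the sources used. Nothing states that the 2 arrays of a group hold independent cultures or tumors, so the p-values below reflect array-to-array spread, which may be technical.

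NF-kB is a family of dimers built from RELA, RELB, REL and the processed products of NFKB1 and NFKB2. In resting cells inhibitory IkB proteins hold the dimers in the cytoplasm. Receptor signals through the IKK kinases remove the inhibitor, and the dimers then switch on genes that include their own brakes. In melanoma the pathway is known for driving chemokine and survival genes. JMJD3, encoded by KDM6B, removes methyl groups from lysine 27 of histone H3, a repressive mark.

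Values are the deposited normalised intensities, for which a level of 161.4 separated signal from background; between 19913 and 19923 probes exceeded it on each array. Log2 differences were computed after background correction and are given with their standard error (SE). A gene was called when limma's Benjamini-Hochberg adjusted p over all 12415 tested genes was under 0.05. KDM6B was near background throughout: its intensity was 162 and 160 in tumor-dissociated JMJD3 cells, 148 and 141 in tumor-dissociated vector cells, 156 and 150 in cultured JMJD3 cells and 150 and 144 in cultured vector cells. No source used here states whether the introduced sequence contains the probed stretch, so the probe does not check the labels. Tumor-dissociated JMJD3 replicate 1 and tumor-dissociated vector replicate 2 lay farthest apart on the second principal component, which held 19.6% of the variance, while the first, with 54.0%, separated tumor-dissociated from cultured cells. Without both arrays, an alternative chosen after seeing the data, the counts of called genes among the 9 were 2 for tumor-dissociated against cultured JMJD3 cells (4 with all arrays) and 5 for the vector cells (5 with all arrays). The 5 were not the same genes: NFKB1 lost its call, at -0.69 (limma adjusted p = 0.0566), and NFKBIA gained one, at 0.92 (limma adjusted p = 0.0208). Of 9 measured melanoma markers, SOX10, MITF, CSPG4, S100A1 and MCAM exceeded background on 8 of 8 arrays. PMEL did so on 2, and MLANA, TYR and S100B on 0. SOX10 was 230.5 on tumor-dissociated vector replicate 2 and 1188 to 3096 on the other 7 arrays. CSPG4, S100A1 and MCAM were also lowest on that array, at 1022, 171 and 183, while MITF and PMEL were not. The 9 markers summed to 3797 to 5391 in tumor-dissociated JMJD3 cells and 2477 to 4513 in tumor-dissociated vector cells. In cultured JMJD3 and vector cells the sums were 4288 to 5161 and 4983 to 6447.

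The annotated promoters of the called genes are shown because NF-kB controls several of its own regulators through kappaB sites. The RefSeq table for GRCh38.p14 held 14 windows for 9 of the 10 genes, each running from 250 bases before to 50 bases after a transcript start. The kappaB consensus, a 10-base motif with G residues at its start and C residues at its end, was searched on both strands with no mismatch. Below are the windows of the 3 genes that were higher in tumor-dissociated cells of both kinds, followed by 1 of 2 windows each of NFKB1, lower in vector cells, and BIRC2, lower in both; their other windows held no match. Each is written 5′ to 3′ on the gene's strand, and capitals mark matches.
TNFAIP3 (chr6:137867009-137867308, plus strand): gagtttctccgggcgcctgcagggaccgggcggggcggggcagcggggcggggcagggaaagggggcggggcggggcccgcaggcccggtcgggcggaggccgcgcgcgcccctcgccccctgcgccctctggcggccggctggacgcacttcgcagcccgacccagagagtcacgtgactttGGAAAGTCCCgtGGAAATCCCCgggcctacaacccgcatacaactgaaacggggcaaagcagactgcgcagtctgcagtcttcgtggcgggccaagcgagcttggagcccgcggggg
BCL3 (chr19:44748458-44748757, plus strand): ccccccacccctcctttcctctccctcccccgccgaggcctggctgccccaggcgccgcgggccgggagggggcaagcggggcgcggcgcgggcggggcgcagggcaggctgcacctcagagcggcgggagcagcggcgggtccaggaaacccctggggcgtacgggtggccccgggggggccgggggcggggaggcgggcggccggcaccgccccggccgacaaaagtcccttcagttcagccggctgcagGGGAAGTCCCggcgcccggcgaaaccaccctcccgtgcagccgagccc
TNFAIP2 (chr14:103123211-103123510, plus strand): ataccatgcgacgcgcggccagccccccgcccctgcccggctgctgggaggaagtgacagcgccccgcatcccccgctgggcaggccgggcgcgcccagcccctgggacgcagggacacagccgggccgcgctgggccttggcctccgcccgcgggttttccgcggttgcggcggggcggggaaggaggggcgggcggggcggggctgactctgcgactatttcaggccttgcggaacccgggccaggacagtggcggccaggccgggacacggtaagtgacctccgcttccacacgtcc
NFKB1 (chr4:102501109-102501408, plus strand): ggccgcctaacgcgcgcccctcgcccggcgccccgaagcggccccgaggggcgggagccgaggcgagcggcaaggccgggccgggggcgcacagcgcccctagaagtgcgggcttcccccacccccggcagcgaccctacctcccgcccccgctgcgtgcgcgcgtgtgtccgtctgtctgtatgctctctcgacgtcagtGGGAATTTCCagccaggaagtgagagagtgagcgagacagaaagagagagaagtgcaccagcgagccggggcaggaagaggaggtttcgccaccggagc
BIRC2 (chr11:102346964-102347263, plus strand): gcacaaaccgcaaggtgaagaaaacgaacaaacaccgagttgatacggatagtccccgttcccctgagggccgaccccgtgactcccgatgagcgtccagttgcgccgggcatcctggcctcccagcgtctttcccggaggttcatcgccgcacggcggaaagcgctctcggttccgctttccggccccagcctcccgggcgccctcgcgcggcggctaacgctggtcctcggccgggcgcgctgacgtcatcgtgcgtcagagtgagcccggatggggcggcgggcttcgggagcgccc

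The TNFAIP3 window held 2 matches, both on the opposite strand, which read GGGACTTTCC and GGGGATTTCC there and began 67 and 55 bases before the start. NFKB1 had GGGAATTTCC from 49 bases before the start. The same letters occurred in the NFKBIA window (chr14:35404700-35404999, minus strand) on the opposite strand, from 81 bases before the start. BCL3 held GGGAAGTCCC, which meets the consensus on both strands, from base 3 of the transcript. TNFAIP2, BIRC2 and RELA had no match in their windows. In all, 6 of the 9 genes with a window held a match in at least 1 window (NFKB1, NFKB2, NFKBIA, BCL3, TNFAIP3 and BIRC3), beside 3619 of 27305 genes in the table (13.3%) and 11.3% of all windows. A match is a run of letters and says nothing about binding in these cells. Among the called genes, matches stood in 2 of the 3 that were higher and in 1 of the 2 that were lower.

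**Figure D1:**
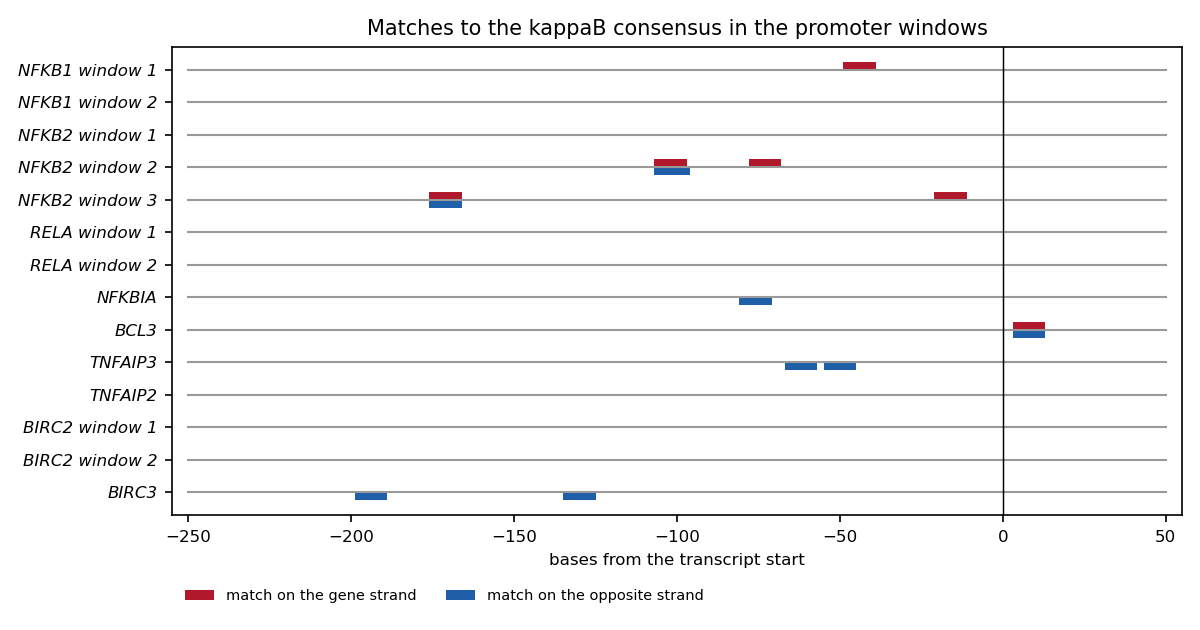
Positions of matches to the kappaB consensus in the 14 promoter windows of 9 genes, in bases from the transcript start (x axis), with 1 line per window; red blocks lie on the gene's strand and blue blocks on the opposite strand. TNFAIP3 holds 2 matches just before the start and BCL3 holds 1 just after it, while the windows of TNFAIP2, RELA and BIRC2 hold none.

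The comparison of tumor-dissociated with cultured cells asked how the genes differed after passage through a tumor, in each construct separately. TNFAIP3, TNFAIP2 and BCL3 rose in tumor-dissociated cells of both kinds, TNFAIP3 by 3.03-fold with JMJD3 and 5.10-fold with vector. NFKB1, the most intense of the 9, fell in vector cells by 0.73 ± 0.16 log2 units (SE; limma adjusted p = 0.0217), and the ubiquitin ligase gene BIRC2 fell in both. RELA and NFKB2 were not called in either. In JMJD3 cells 4 of 9 genes were called, 3 higher and 1 lower, where the background over all tested genes was 5.96%, with 3.76% higher and 2.20% lower. In vector cells 5 of 9 were called, 3 higher and 2 lower, against a background of 10.1%, with 6.15% higher and 3.99% lower. The 2 comparisons share no array, but they share each gene's pooled estimate of spread. The median log2 difference of the 9 genes was 0.17 in JMJD3 cells and -0.09 in vector cells, beside -0.01 and -0.03 over all tested genes. Intensities of the tumor-dissociated and cultured groups did not overlap for 5 of 9 genes with JMJD3, 3 higher and 2 lower, where the background was 55.6% (26.6% higher, 29.0% lower). They did not overlap for 8 of 9 with vector, 4 higher and 4 lower, where it was 57.5% (26.7% higher, 30.8% lower).

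Genes of fibroblasts were also higher in tumor-dissociated cells. Of 9 tested fibroblast markers 5 were called higher in JMJD3 cells and 6 in vector cells, among them COL1A1, COL1A2, COL3A1 and PDGFRB. Of all tested genes 3.76% and 6.15% were called higher in JMJD3 and vector cells. COL3A1 and FAP exceeded background on 4 of 8 arrays, all of them tumor-dissociated, so they were tested only through the groups where they were high. COL1A1 exceeded it on 5, barely so on cultured vector replicate 2, at 161.9. The counts of called markers therefore depend in part on the filter on dim probes. The summed intensity of the 10 listed markers was 3931 to 6504 in tumor-dissociated JMJD3 cells, 3914 to 4424 in tumor-dissociated vector cells, 2166 to 2266 in cultured JMJD3 cells and 1917 to 2047 in cultured vector cells. The surface marker THY1 was above background on 0 of 8 arrays. The part of such cells in the differences was not tested, and fewer cells of a kind and less RNA per cell cannot be told apart in these bulk samples. Of 5 tested leukocyte markers 0 were called higher and 1, LYZ, lower in tumor-dissociated cells of each kind. Of all tested genes 2.20% and 3.99% were called lower in JMJD3 and vector cells. CSF1R was not called, with differences of 1.59 ± 0.63 in JMJD3 cells and 0.54 ± 0.63 in vector cells and its highest intensity, 558, on tumor-dissociated JMJD3 replicate 1. PTPRC, CD3D, CD163, TYROBP and FCER1G were above background on 0 of 8 arrays, and the sum of 11 markers was 2961 to 3698 and 2865 to 3230 in tumor-dissociated JMJD3 and vector cells, against 3129 to 3223 and 3159 to 3338 in cultured JMJD3 and vector cells. Endothelial VWF, CDH5, KDR, CLDN5 and ERG were above background on 0 of 8 arrays. Summed over 8 endothelial markers, the intensity was 1172 to 1214 and 1188 to 1189 in tumor-dissociated JMJD3 and vector cells, against 1160 to 1192 and 1175 to 1179 in cultured JMJD3 and vector cells. Of these, 2 were tested. PECAM1 was called higher after the tumor in JMJD3 cells, at 180 and 175 in tumor-dissociated against 144 and 145 in cultured cells, beside 3.76% of all tested genes. It exceeded background on 2 of 8 arrays, both of tumor-dissociated JMJD3 cells. PECAM1 was thus tested only through the group where it was high.

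TNFAIP3 encodes A20, a ubiquitin-editing enzyme that shuts down IKK signalling and is itself an NF-kB target. Its intensity was 358 and 489 in tumor-dissociated JMJD3 cells, against 207 and 206 in cultured JMJD3 cells. With vector it was 558 and 556 in tumor-dissociated cells, against 187 and 197 in cultured vector cells. Every tumor-dissociated array was above every cultured one, and the spread was widest between the tumor-dissociated JMJD3 arrays. TNFAIP3 rose by 1.60 ± 0.20 log2 units in JMJD3 cells (limma adjusted p = 0.00557) and by 2.35 ± 0.20 in vector cells (limma adjusted p = 0.000199). In vector cells the call held in all 18 alternatives, with differences from 1.54 to 2.43. In JMJD3 cells it was lost only without cultured JMJD3 replicate 2, where the difference was 1.59 and limma's adjusted p 0.0780, the highest of the 18 alternatives, which began at 0.00198.

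BCL3 is an atypical IkB protein that acts in the nucleus with homodimers of the NFKB1 and NFKB2 products. It measured 870 and 641 in tumor-dissociated JMJD3 cells, against 418 and 370 in cultured JMJD3 cells. With vector the values were 607 and 724 in tumor-dissociated cells, against 381 and 338 in cultured cells. All 4 tumor-dissociated values lay above all 4 cultured ones, and replicates within tumor-dissociated groups differed by more than those in culture. BCL3 rose by 1.15 ± 0.21 with JMJD3 (limma adjusted p = 0.0210) and by 1.13 ± 0.21 with vector (limma adjusted p = 0.0119). Both calls depended on particular arrays. A fit of only the groups compared also lost the JMJD3 call, at 1.15 (limma adjusted p = 0.0522). With JMJD3 the difference was 1.27, 1.03 and 0.89 without cultured JMJD3 replicate 1, cultured JMJD3 replicate 2 and tumor-dissociated JMJD3 replicate 1, none of which was called, and with vector it was 1.01 and 0.98 without cultured vector replicate 2 and tumor-dissociated vector replicate 2, not called either.

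TNFAIP2, a TNF-inducible gene whose protein takes part in membrane tubules and cell motility, was near background in culture. Its probe gave 239 and 214 in tumor-dissociated JMJD3 cells, against 163 and 156 in cultured JMJD3 cells. With vector it gave 232 and 285 in tumor-dissociated cells, against 161 and 155 in cultured cells. It was above background on all 4 tumor-dissociated arrays, on 1 of 2 cultured JMJD3 arrays and on 0 of 2 cultured vector arrays, so it passed the filter on dim probes largely through the groups where it was high. In vector cells the ratio of the deposited means, which include background, was 1.64-fold. On background-corrected values TNFAIP2 was at least 2.61-fold higher in tumor-dissociated than in cultured vector cells (limma adjusted p = 0.00265), with each cultured array set to its lowest signal above background; folds given below as at least a value are on this corrected scale and depend on that correction. In JMJD3 cells, where 1 of the 2 cultured arrays was not above background, the fitted difference was 1.12 ± 0.20 log2 units (limma adjusted p = 0.0188). The JMJD3 call was lost without background correction, at 0.51, and without cultured JMJD3 replicate 1, cultured JMJD3 replicate 2 or tumor-dissociated JMJD3 replicate 1, at 1.21, 1.02 and 0.97; limma's adjusted p ran from 0.0156 to 0.165 over 17 alternatives.

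NFKBIA encodes IkB-alpha, the inhibitor that NF-kB resynthesises to end its own response. Intensities were 2407 and 1694 in tumor-dissociated JMJD3 cells, against 1592 and 1810 in cultured JMJD3 cells, and these groups overlapped. With vector they were 2379 and 1928 in tumor-dissociated cells, against 1354 and 1261 in cultured cells, without overlap. The difference was 0.26 ± 0.21 in JMJD3 cells (95% interval -0.21 to 0.74). It was 0.76 ± 0.21 in vector cells and missed the threshold (limma adjusted p = 0.0523); 10 of 18 alternatives called it, over a range of adjusted p from 0.0208 to 0.281.

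**Figure D2:**
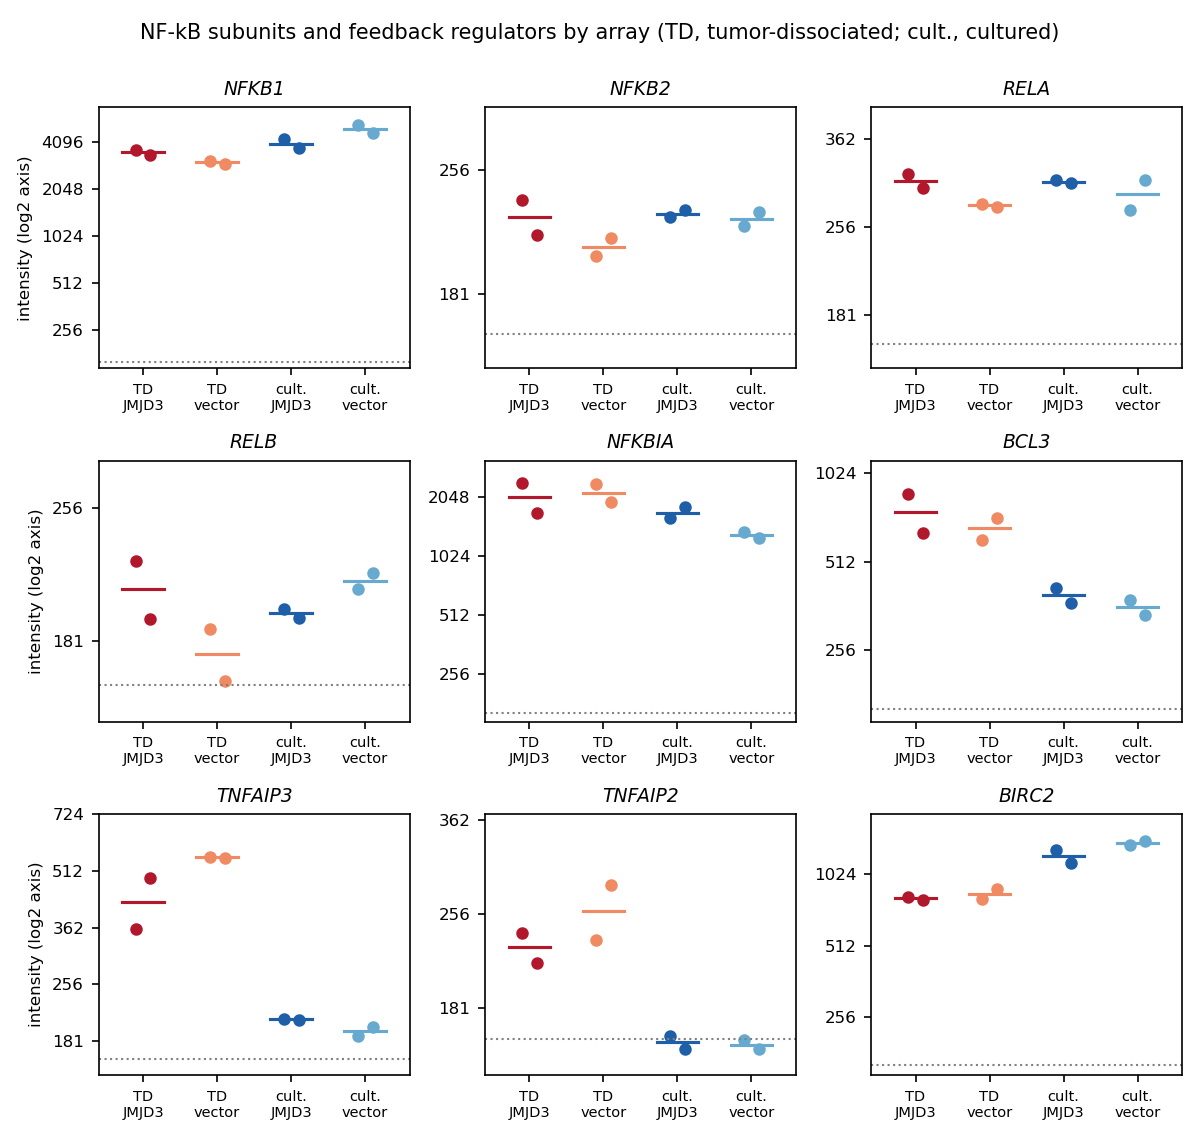
Intensity (log2 axis) of the 9 measured genes on each of the 8 arrays; points are arrays, horizontal bars the means of 2 arrays, and the dotted line the background level of 161.4. TNFAIP3, BCL3 and TNFAIP2 lie higher on all 4 tumor-dissociated arrays than on the 4 cultured ones, and BIRC2 lies lower.

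Among the subunits, NFKB1 encodes p105, the precursor of the DNA-binding subunit p50. Its intensity was 3667 and 3367 in tumor-dissociated JMJD3 cells, against 4271 and 3732 in cultured JMJD3 cells. With vector it was 3113 and 2965 in tumor-dissociated cells, against 5254 and 4678 in cultured cells. The levels ran from highest to lowest as cultured vector, cultured JMJD3, tumor-dissociated JMJD3 and tumor-dissociated vector, and no neighbouring groups in that order overlapped. In JMJD3 cells the difference of -0.19 ± 0.16 did not pass (95% interval -0.55 to 0.17). The fall in vector cells was 0.60-fold, and the call was lost without cultured vector replicate 1, cultured vector replicate 2, tumor-dissociated vector replicate 1 or tumor-dissociated vector replicate 2, at -0.64, -0.81, -0.76 and -0.69.

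RELB, the partner of the NFKB2 product p52 in the noncanonical pathway, was dim. Tumor-dissociated JMJD3 cells had 223 and 192, against 197 and 192 in cultured JMJD3 cells. With vector it had 187 and 163 in tumor-dissociated cells, the lower just above background, against 207 and 216 in cultured cells. Only the vector groups were separate. The log2 difference was 0.17 ± 0.21 with JMJD3 (95% interval -0.30 to 0.64) and -0.61 ± 0.21 with vector (limma adjusted p = 0.101, 95% interval -1.08 to -0.14), and neither was called.

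RELA encodes p65, the subunit with the main activation domain. Its probe read 315 and 298 in tumor-dissociated JMJD3 cells, against 308 and 304 in cultured JMJD3 cells, and 280 and 277 in tumor-dissociated vector cells, against 273 and 308 in cultured vector cells. The groups overlapped in both comparisons. The differences were 0.0046 ± 0.16 and -0.09 ± 0.16 in JMJD3 and vector cells, with 95% intervals of -0.35 to 0.36 and -0.45 to 0.27.

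NFKB2 encodes p100, the precursor of p52, and had 3 probes. The brightest gave 235 and 213 in tumor-dissociated JMJD3 cells, against 225 and 229 in cultured JMJD3 cells, and 201 and 212 in tumor-dissociated vector cells, against 219 and 228 in cultured vector cells. Its differences of -0.03 ± 0.16 and -0.22 ± 0.16 were not called. A second probe gave 227 and 180 in tumor-dissociated JMJD3 cells, against 236 and 243 in cultured JMJD3 cells, and 182 and 183 in tumor-dissociated vector cells, against 242 and 236 in cultured vector cells. Tested among all 22287 probes above background on at least 2 arrays, this probe differed by -0.47 ± 0.21 with JMJD3 (limma adjusted p = 0.227) and -0.76 ± 0.21 with vector (limma adjusted p = 0.0609), larger than on the first probe and not called. The remaining NFKB2 probe was above background on 0 of 8 arrays.

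BIRC2 encodes cIAP1, a ubiquitin ligase that joins the TNF receptor complex and keeps the noncanonical kinase NIK in check. Its brighter probe gave 823 and 801 in tumor-dissociated JMJD3 cells, against 1290 and 1143 in cultured JMJD3 cells. With vector it gave 802 and 887 in tumor-dissociated cells, against 1363 and 1409 in cultured cells. All tumor-dissociated values were below all cultured ones. BIRC2 fell by 0.65 ± 0.15 log2 units in JMJD3 cells (limma adjusted p = 0.0440) and by 0.79 ± 0.15 in vector cells (limma adjusted p = 0.0134). In JMJD3 cells 11 of 18 alternatives lost the call, at differences between -0.74 and -0.55, including the fits without each cultured array and without each tumor-dissociated JMJD3 array; in vector cells it was lost without cultured vector replicate 1, cultured vector replicate 2 and tumor-dissociated vector replicate 1, at -0.82, -0.77 and -0.71. The dimmer BIRC2 probe gave 330 and 439 in tumor-dissociated JMJD3 cells, against 509 and 496 in cultured JMJD3 cells, and 365 and 450 in tumor-dissociated vector cells, against 526 and 454 in cultured vector cells. Its differences had the same sign, -0.53 ± 0.23 and -0.35 ± 0.23, and were not called among all probes (limma adjusted p = 0.199 and 0.395).

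**Figure D3:**
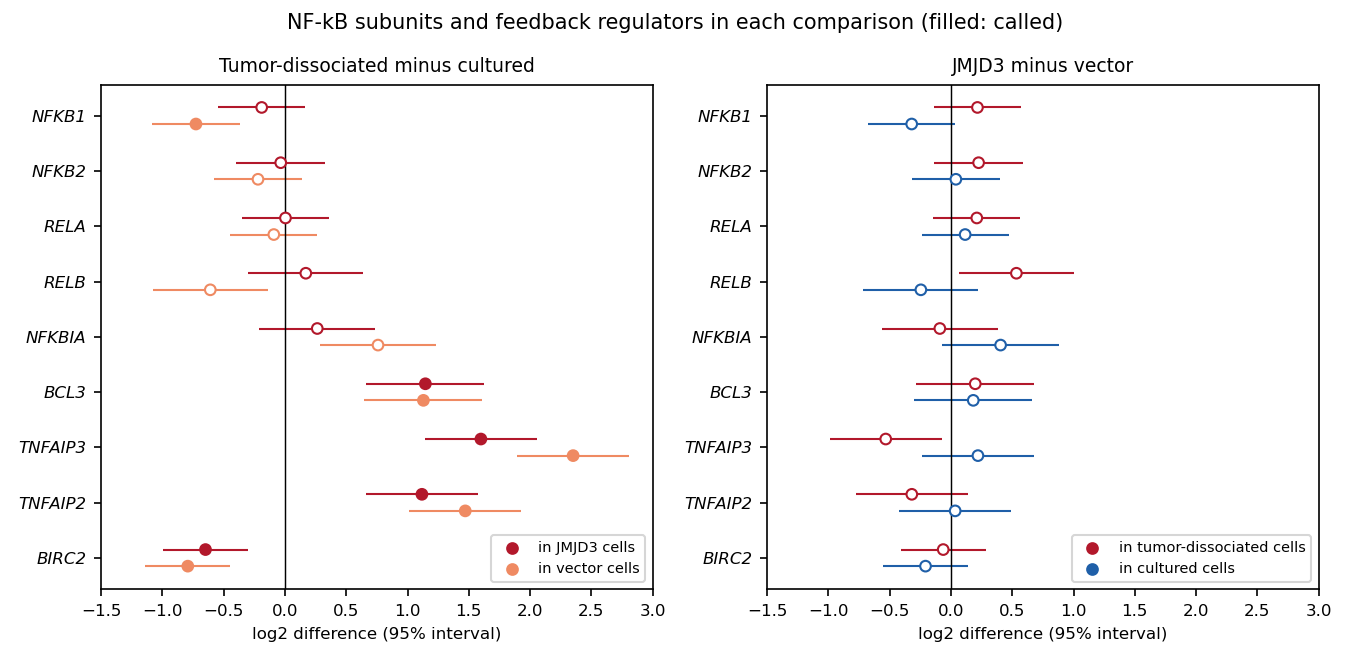
Log2 differences of the 9 genes with 95% intervals (x axis) for tumor-dissociated minus cultured cells (left) and JMJD3 minus vector (right); filled points passed limma's adjusted p under 0.05. The called points on the left are TNFAIP3, BCL3, TNFAIP2 and BIRC2 in both kinds of cells and NFKB1 in vector cells, and no point on the right is called.

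The comparison of JMJD3 with vector asked how these genes differed between cells labelled with each construct. The KDM6B probe does not check those labels, and demethylase activity was not measured on these arrays. No subunit or regulator was called in either origin. In tumor-dissociated cells limma called 0 of 9 genes, where the background was 0.822% of all tested genes (0.371% higher, 0.451% lower), and 2 of the 9 had an unadjusted p under 0.05. In cultured cells it called 0 of 9, beside a background of 0.0886%, all of it higher, and 0 had an unadjusted p under 0.05. The groups did not overlap for 5 of 9 genes in tumor-dissociated cells, 4 higher and 1 lower, where the background was 38.6% (19.0% higher, 19.5% lower). They did not overlap for 5 of 9 in cultured cells, 2 higher and 3 lower, where it was 36.2% (17.7% higher, 18.5% lower). Medians over the 9 genes were 0.20 in tumor-dissociated and 0.04 in cultured cells, with medians over all genes at -0.0011 and -0.0093.

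The 2 genes with an unadjusted p under 0.05 in tumor-dissociated cells differed in opposite directions. RELB, at 223 and 192 with JMJD3 and 187 and 163 with vector, had a difference of 0.53 ± 0.21 (limma adjusted p = 0.304, 95% interval 0.07 to 1.00). Leaving out 1 array gave 0.30 to 0.77 for RELB, and leaving out both tumor-dissociated JMJD3 replicate 1 and tumor-dissociated vector replicate 2 gave 0.086. TNFAIP3, at 358 and 489 with JMJD3 and 558 and 556 with vector, had a difference of -0.53 ± 0.20 (limma adjusted p = 0.293, 95% interval -0.99 to -0.07). Leaving out tumor-dissociated JMJD3 replicate 2 moved TNFAIP3 to -0.83 and past the threshold (limma adjusted p = 0.0475), and leaving out replicate 1 moved it to -0.23, with adjusted p between 0.0475 and 0.754 over 18 alternatives. In the same cells NFKB1 differed by 0.22 ± 0.16, NFKB2 by 0.23 ± 0.16, RELA by 0.21 ± 0.16 and BCL3 by 0.20 ± 0.21. NFKBIA, TNFAIP2 and BIRC2 had differences of -0.09 ± 0.21, -0.32 ± 0.20 and -0.06 ± 0.15.

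In culture the inhibitor NFKBIA had the largest difference of the 9, with 1592 and 1810 in JMJD3 cells and 1354 and 1261 in vector cells (0.41 ± 0.21, 95% interval -0.07 to 0.88). NFKB1 followed at -0.32 ± 0.16, with 4271 and 3732 in JMJD3 cells and 5254 and 4678 in vector cells (95% interval -0.68 to 0.04). Both genes separated the JMJD3 from the vector arrays, yet limma's adjusted p was 1.00 for each. The other 7 differences in culture lay between -0.25 for RELB and 0.22 for TNFAIP3.

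Whether the JMJD3 effect differed between origins was tested directly, which is also the test of whether the origin difference depended on JMJD3. Limma called 0 of 9 genes, beside a background of 0.105% (0.0242% higher, 0.0805% lower), and 3 of the 9 had an unadjusted p under 0.05. The effect in tumor-dissociated cells minus that in culture was -0.75 ± 0.29 for TNFAIP3 (limma adjusted p = 0.622), 0.78 ± 0.29 for RELB (limma adjusted p = 0.615) and 0.54 ± 0.22 for NFKB1 (limma adjusted p = 0.700). For NFKB1, called lower after the tumor only in vector cells, the 2 origin differences are therefore not shown to be unequal. BCL3 had the smallest difference of effects, 0.02 ± 0.30, with a 95% interval of -0.67 to 0.70.

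Other genes of the pathway were grouped by role. Of 17 listed receptors and ligands 12 were tested; 1 was called higher and 0 lower after the tumor in JMJD3 cells, 1 higher and 1 lower in vector cells, and 1 higher with JMJD3 in tumor-dissociated cells. The share called after the tumor was 8.33% in JMJD3 and 16.7% in vector cells, beside 5.96% and 10.1% of all tested genes. For JMJD3 against vector in tumor-dissociated cells it was 8.33%, beside 0.822% of all tested genes. That share is 1 gene, the smallest count above 0, and in culture 0 of 12 were called. TNFSF12, which encodes the cytokine TWEAK, was called after the tumor in both kinds of cells. Its probe gave 186 and 227 in tumor-dissociated JMJD3 cells against 142 and 153 in cultured JMJD3 cells, and 233 and 240 in tumor-dissociated vector cells against 135 and 136 in cultured vector cells. The deposited means stood 1.40-fold apart with JMJD3 and 1.74-fold with vector. After background correction it was at least 1.73-fold and at least 2.27-fold higher in the same order, the cultured groups being at background. TNFSF12 passed the filter on dim probes only through the tumor-dissociated groups, where it was high. The JMJD3 call was lost without cultured JMJD3 replicate 1 or cultured JMJD3 replicate 2, at 1.00 and 1.37, and without background correction, at 0.48. A fit of only the groups compared also lost it (limma adjusted p = 0.0580). TLR4, a receptor for bacterial lipopolysaccharide, was low in 1 group only, with 398 and 422 in tumor-dissociated JMJD3 cells, 230 and 283 in tumor-dissociated vector cells, 476 and 480 in cultured JMJD3 cells and 494 and 470 in cultured vector cells. It fell in tumor-dissociated vector cells relative to culture by 1.32 ± 0.19 (limma adjusted p = 0.00300). With JMJD3 it was higher than with vector after the tumor by 1.01 ± 0.19 (limma adjusted p = 0.0497), a call that none of the 8 fits leaving out 1 array kept, at 0.76 to 1.26.

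Of 21 tested adaptors and kinases 0 were called higher and 1 lower after the tumor in JMJD3 cells, and 0 higher and 2 lower in vector cells. These shares, 4.76% and 9.52%, were near the 5.96% and 10.1% of all tested genes. For JMJD3 against vector 0 of 21 were called in either origin. The TAK1-binding protein gene TAB3 was at background after the tumor, with deposited means 1.20-fold below culture in JMJD3 cells and 1.42-fold below it in vector cells. After background correction it was at least 1.38-fold and at least 1.80-fold lower in the same order, and the JMJD3 call was lost without that correction, at -0.26. TAB3 passed the filter on dim probes only through the cultured groups, where it was higher. CHUK, which encodes the kinase IKK-alpha, had a difference of -0.61 ± 0.17 in vector cells (limma adjusted p = 0.0483). The calls of CHUK and of TAB3 in JMJD3 cells held in 2 of 8 fits that left out 1 array each, at -0.73 to -0.50 and -0.77 to -0.60.

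Of 22 tested genes among other IkB proteins, deubiquitinases and inhibitors, 1 was called higher and 0 lower after the tumor in JMJD3 cells, and 1 higher and 2 lower in vector cells. The shares called were 4.55% and 13.6%, beside 5.96% and 10.1% of all tested genes. With JMJD3 against vector 0 were higher and 1 lower in tumor-dissociated cells, a share of 4.55% beside 0.822% of all tested genes. In culture 0 of 22 were called. NFKBIZ encodes IkB-zeta, a nuclear IkB protein that helps NF-kB induce secondary response genes. It measured 583 and 660 in tumor-dissociated JMJD3 cells, 1281 and 1395 in tumor-dissociated vector cells, 655 and 709 in cultured JMJD3 cells and 605 and 660 in cultured vector cells. Only the tumor-dissociated vector arrays were high. After the tumor NFKBIZ rose by 1.22 ± 0.16 in vector cells (limma adjusted p = 0.00207), a call held in all 18 alternatives, and had a difference of -0.16 ± 0.16 in JMJD3 cells. With JMJD3 it fell by 1.25 ± 0.16 in tumor-dissociated cells (limma adjusted p = 0.0124), and its difference in culture was 0.13 ± 0.16. The JMJD3 call was lost without tumor-dissociated JMJD3 replicate 1 or tumor-dissociated vector replicate 2, at -1.15 and -1.19, and in a fit of only the groups compared; limma's adjusted p ran from 0.00594 to 0.131. The test of unequal JMJD3 effects gave -1.38 ± 0.23 and was not called (limma adjusted p = 0.0884).

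IER3, an NF-kB-induced survival gene, ran the other way in the same group, with 8273 and 6391 in tumor-dissociated JMJD3 cells, 4363 and 3312 in tumor-dissociated vector cells, 6558 and 4854 in cultured JMJD3 cells and 9090 and 6689 in cultured vector cells. It fell by 1.06 ± 0.24 after the tumor in vector cells (limma adjusted p = 0.0264), and NFKBIE, which encodes IkB-epsilon, fell by 0.94 ± 0.21 (limma adjusted p = 0.0226). Without cultured vector replicate 1, cultured vector replicate 2 or tumor-dissociated vector replicate 2 neither was called, at -0.83, -1.28 and -0.85 for IER3 and -0.77, -1.12 and -0.84 for NFKBIE. RBCK1, a subunit gene of the linear ubiquitin ligase complex, rose by 0.89 ± 0.17 in JMJD3 cells (limma adjusted p = 0.0237). It was not called without cultured JMJD3 replicate 1, cultured JMJD3 replicate 2 or tumor-dissociated JMJD3 replicate 1, at 0.90, 0.88 and 0.73. A fit of only the groups compared did not call it either (limma adjusted p = 0.0599).

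**Figure D4:**
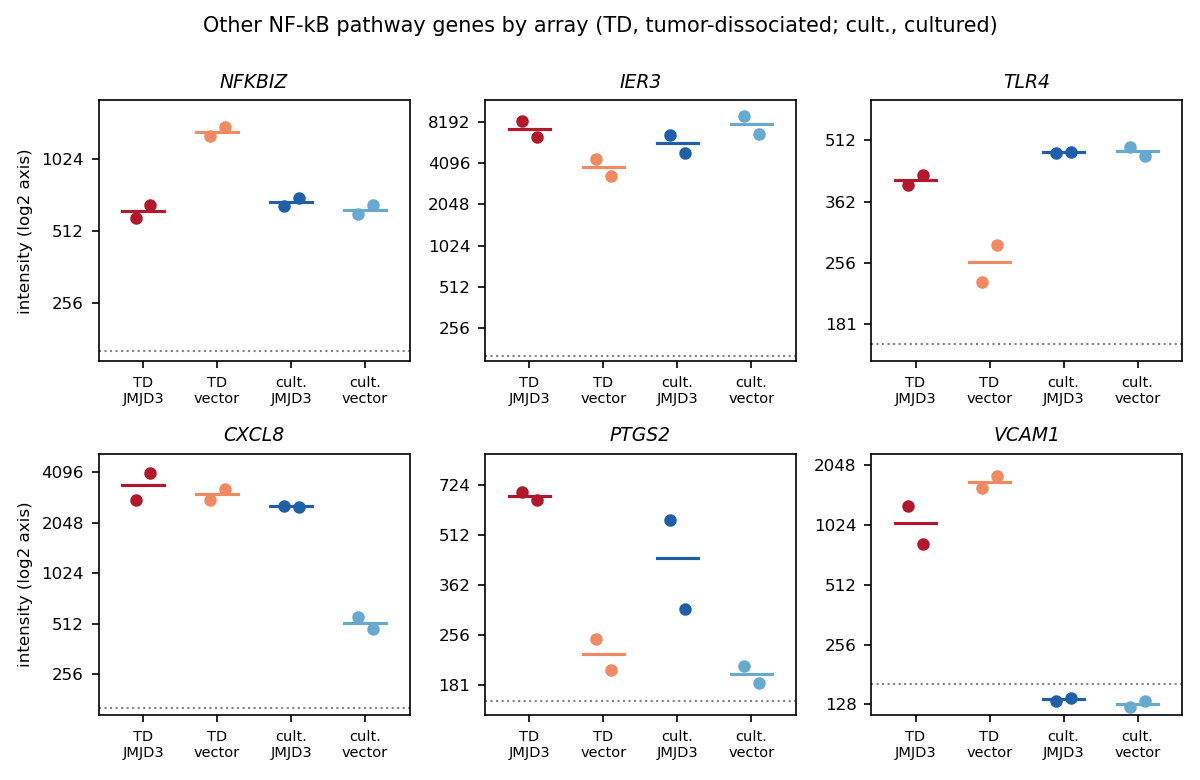
Intensity (log2 axis) of 6 other pathway genes on each array; points are arrays, bars the means of 2 arrays, and the dotted line the background level. NFKBIZ is high, and IER3 and TLR4 low, in tumor-dissociated vector cells alone, and VCAM1 is at background in culture.

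The called targets of NF-kB lay in both directions. Of 14 tested secreted and surface targets, 2 were higher and 1 lower after the tumor in JMJD3 cells, and 3 were higher and 2 lower in vector cells. These shares were 21.4% and 35.7%, beside 5.96% and 10.1% of all tested genes. The 3 called in JMJD3 cells were VCAM1, IL6 and MMP9. All of them passed the filter on dim probes only through groups where they were high, so the filter bears on that share. The adhesion receptor gene VCAM1, at 1269 and 820 in tumor-dissociated JMJD3 cells against 133 and 138 in cultured JMJD3 cells, had deposited means 7.69-fold apart. With vector the values were 1565 and 1793 in tumor-dissociated and 125 and 132 in cultured cells, 13.1-fold apart. After background correction VCAM1 was at least 15.5-fold higher with JMJD3 and at least 26.7-fold higher with vector. VCAM1 was below background on all cultured arrays and passed the filter on dim probes only through the tumor-dissociated groups. The same held for IL6, while MMP9 passed only through cultured JMJD3 cells. The cytokine gene IL6, at 308 and 191 in tumor-dissociated JMJD3 cells against 156 and 149 in cultured JMJD3 cells, was 1.64-fold higher by deposited means and at least 2.29-fold higher after background correction. This call held in 1 of 8 fits that left out an array and was lost without background correction, at 0.67. MMP9, a gelatinase gene, was 1.74-fold lower by deposited means in tumor-dissociated than in cultured JMJD3 cells and at least 2.18-fold lower after background correction, and its call was lost without cultured JMJD3 replicate 2, at -1.63. In vector cells the chemokine genes CXCL8 and CXCL1 rose by 2.82 ± 0.21 and 1.19 ± 0.24, while CCL20 was 1.44-fold lower by deposited means and at least 1.99-fold lower after background correction. CXCL1 was not called without cultured vector replicate 1, cultured vector replicate 2 or tumor-dissociated vector replicate 1, at 1.07, 1.32 and 0.93.

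Of 16 intracellular targets, 2 were higher and 3 lower after the tumor in JMJD3 cells and 3 higher and 2 lower in vector cells. The share was 31.2% in each, beside 5.96% and 10.1% of all tested genes in JMJD3 and vector cells. NINJ1, which encodes a protein of plasma membrane rupture, rose by 1.12 ± 0.17 with JMJD3 and 1.63 ± 0.17 with vector. The phosphatase gene DUSP1 rose by 1.08 ± 0.17 and 0.74 ± 0.17 in the same order, and the stress factor gene ATF3 fell by 0.83 ± 0.17 and 0.81 ± 0.17. CCND1, the gene of cyclin D1, fell by 1.34 ± 0.16 in vector cells. It was also called in JMJD3 cells, at -0.66 ± 0.16 (limma adjusted p = 0.0464), a value outside the naming rule that was added after it was seen and not recomputed under the alternatives. GADD45B had a difference of -0.71 ± 0.17 in JMJD3 cells. Of these calls, NINJ1 and CCND1 in vector cells held in 8 of 8 fits that left out an array. With JMJD3, NINJ1 and DUSP1 lost the call without cultured JMJD3 replicate 1, cultured JMJD3 replicate 2 or tumor-dissociated JMJD3 replicate 1, at 1.20, 1.04 and 1.02 for NINJ1 and 0.97, 1.18 and 0.91 for DUSP1. In vector cells DUSP1 held in 4 of 8 such fits and ATF3 in 5, over differences of 0.67 to 0.80 and -0.98 to -0.63. In JMJD3 cells ATF3 held in 3 and GADD45B in 2, over -0.87 to -0.80 and -0.88 to -0.55.

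With JMJD3 against vector, 1 of the 16 intracellular targets was called in tumor-dissociated cells and 0 in culture. In tumor-dissociated cells the share was 6.25%, beside 0.822% of all tested genes. The called gene was PTGS2, which encodes the inducible cyclooxygenase. It measured 689 and 651 with JMJD3 against 249 and 200 with vector in tumor-dissociated cells, and 568 and 305 against 206 and 183 in culture. It rose by 2.25 ± 0.35 in tumor-dissociated cells (limma adjusted p = 0.0246). Without tumor-dissociated JMJD3 replicate 1 or tumor-dissociated vector replicate 2 it was not called, at 2.20 and 1.96. The call was also lost without background correction, at 1.59, and in a fit with array weights (limma adjusted p = 0.0686). In culture PTGS2 differed by 1.75, and its difference of effects between origins was 0.49, neither of them called. CXCL8 was the 1 called of 14 secreted and surface targets, in culture, a share of 7.14% beside 0.0886% of all tested genes. In tumor-dissociated cells 0 of the 14 were called. In culture CXCL8 measured 2577 and 2558 with JMJD3 against 561 and 475 with vector. It rose there by 2.58 ± 0.21 (limma adjusted p = 0.00254), and the call was lost without cultured JMJD3 replicate 1, cultured JMJD3 replicate 2 or cultured vector replicate 2, at 2.57, 2.58 and 2.43. In tumor-dissociated cells it measured 2786 and 4058 with JMJD3 against 2802 and 3260 with vector, and these overlapped. Medians of the list differences with JMJD3 in tumor-dissociated cells were 0.29 for receptors and ligands, 0.14 for adaptors and kinases, 0.034 for other inhibitors, 0.26 for secreted and surface targets and 0.31 for intracellular targets, beside -0.0011 over all genes. In culture they were 0.084, 0.0071, 0.0033, 0.15 and 0.17 for the same lists, beside -0.0093.

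**Figure D5:**
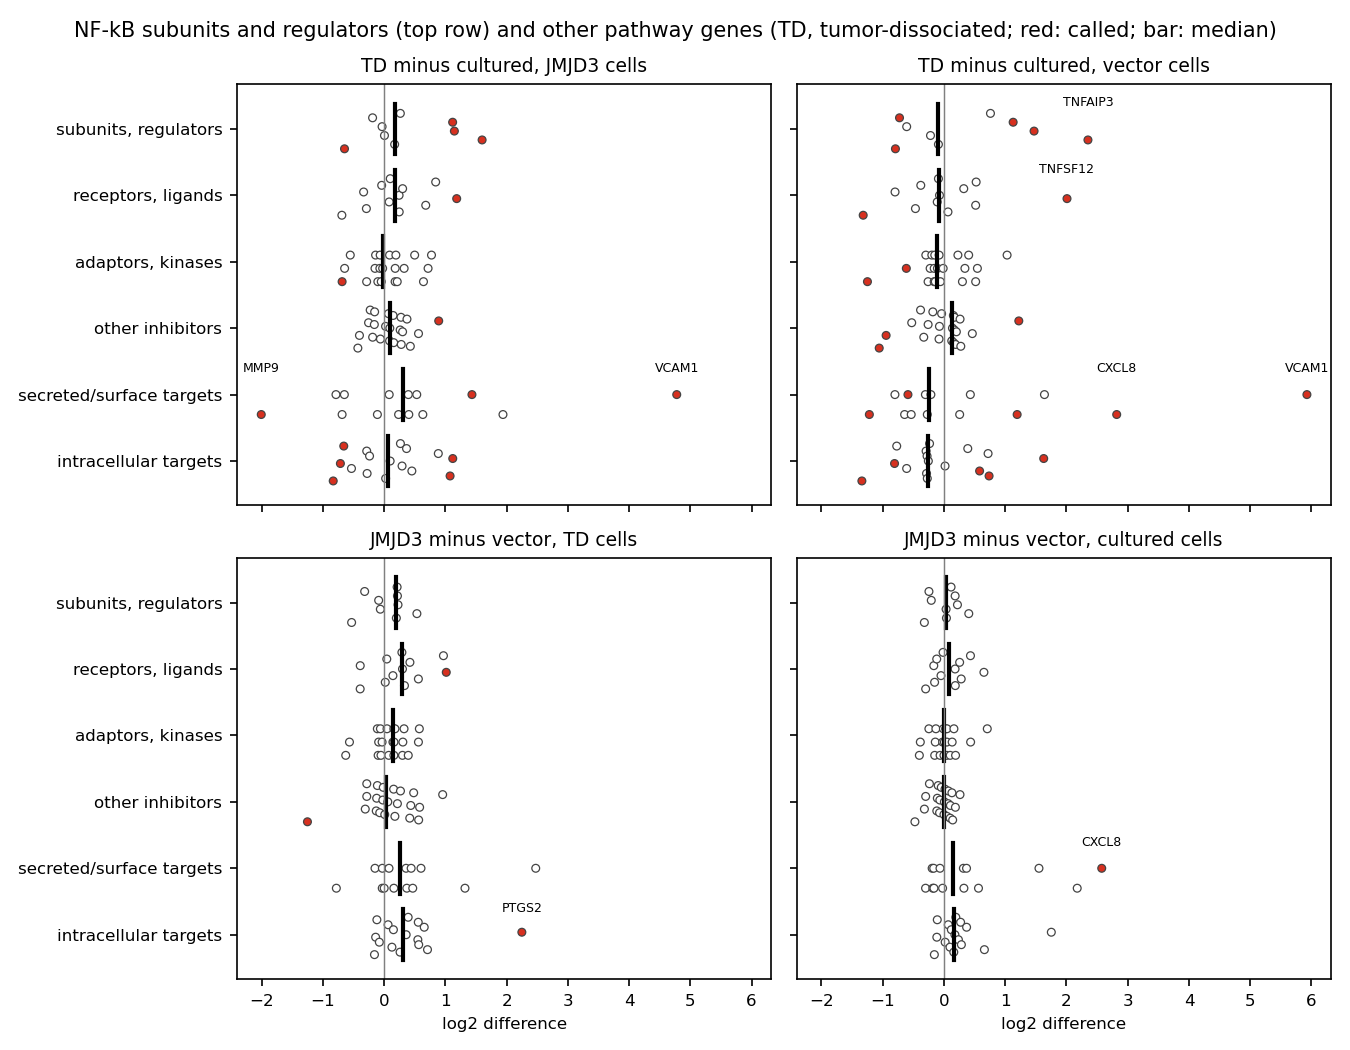
Log2 differences (x axis) of the 9 subunits and regulators and of 5 other pathway lists in 4 comparisons; each point is a gene, red points were called and vertical bars are list medians. Called genes lie on both sides of 0 in the upper panels, and the lower panels hold 4 called genes, of which PTGS2 and CXCL8 lie beyond 2.

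Of the called genes of the set, TNFAIP3 had the smallest p over the 4 groups (limma's F-test, adjusted p = 0.000346). The 5 genes whose log2 values correlated most closely with it over the 8 arrays were TUBB2B (Pearson's r = 0.995), CDC42EP1 (0.992), FBLN1 (0.990), RAC2 (0.990) and TOR4A (0.989). Each was higher on all 4 tumor-dissociated arrays than on all 4 cultured ones, as TNFAIP3 itself was. Genes picked for correlating with TNFAIP3 largely share that order by choice, so the order is no separate result. RAC2, a small GTPase gene best known in blood cells, had 1234 and 1682 in tumor-dissociated JMJD3 cells and 2366 and 2120 in tumor-dissociated vector cells, against 197 and 214 in cultured JMJD3 cells and 178 and 168 in cultured vector cells. These coefficients describe arrays that share 1 normalised distribution and separate mainly by origin. Within the set, TNFAIP3 correlated with TNFAIP2 at 0.94, with BCL3 at 0.87, with NFKB1 at -0.90 and with BIRC2 at -0.94 over the same arrays.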

How the data were processed

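The deposited values are normalised intensity values on a linear scale for 47323 probes on 8 arrays; per the series' design text the authors scanned with a HiScan and used GenomeStudio, and no source used here names the normalization. Sorted columns were equal to within 0.0057 in log2. A second table, with 16 columns whose names match no sample label, was not used, so background was judged from the intensities: the mode of all values (139.7) with the spread below it mirrored gave a level of 161.4 at a one-sided tail of 0.01. Log2 values were taken after limma's normexp with offset 16. Each gene is its probe with the highest mean among 22287 probes above that level on at least 2 arrays. Probes were named by the platform annotation (30113 with 1 symbol, 8 with several and left unnamed, 17202 not listed with a gene).

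limma 3.58.1 in R 4.3.3 fitted 4 group means over 8 arrays (4 residual and 5.11 prior degrees of freedom) for 5 contrasts. The smallest p that an exact permutation test of 2 arrays against 2 allows is 0.333. For a fold given as at least N-fold, the dim group was set, array by array, to the lowest corrected signal still above background. The functions were tested on simulated data. All measured genes of the set were named; of each pathway list, up to 4 called genes with the largest change per contrast; KDM6B; and the 5 genes most like the called gene with the smallest F-test p. Genes and lists were chosen with earlier results of these data known. The number of arrays limits the precision.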

Additional observations from a re-analysis of the deposited data

Results flagged for a closer look

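Among the subunits, regulators and named pathway genes, the JMJD3 effect passed the test of a difference between origins for CXCL8 alone, where the effect in tumor-dissociated cells minus that in cultured cells was -2.42 ± 0.30 on the log2 scale (limma adjusted p = 0.0321). Without 1 array at a time it stood between -2.70 and -2.14 and was called in 3 of 8 fits. It lost the call without cultured vector replicate 1, cultured JMJD3 replicate 1, cultured vector replicate 2, cultured JMJD3 replicate 2 or tumor-dissociated vector replicate 2, at -2.57, -2.41, -2.27, -2.42 and -2.31.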

How the results depend on the processing

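With 2 arrays a group, most limits come from single arrays. Of the 9 genes, 0 were called for JMJD3 against vector in cultured cells and 0 for the difference of effects in all alternatives. Leaving out 1 array at a time called 0 to 1 for JMJD3 against vector in tumor-dissociated cells, 0 to 4 for tumor-dissociated against cultured JMJD3 cells and 2 to 6 for the vector cells. The JMJD3 count was 0 without cultured JMJD3 replicate 2, and the vector count was 2 without cultured vector replicate 2. In JMJD3 cells 2 were called in a fit of only the groups compared and 2 without both tumor-dissociated vector replicate 2 and tumor-dissociated JMJD3 replicate 1, an alternative chosen after seeing the data. Without both, differences that were not called turned sign in JMJD3 cells against culture to -0.055 for RELA, -0.043 for RELB and -0.0031 for NFKBIA, and the difference of effects to -0.088 for BCL3.

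Values that were not called also turned sign when 1 array was left out. In cultured cells JMJD3 against vector ranged from -0.011 to 0.092 for NFKB2, -0.017 to 0.25 for RELA and -0.061 to 0.13 for TNFAIP2. In tumor-dissociated cells it ranged from -0.36 to 0.18 for NFKBIA, -0.15 to 0.020 for BIRC2 and -0.056 to 0.45 for BCL3. Tumor-dissociated against cultured vector cells ranged from -0.22 to 0.043 for RELA. Against culture, JMJD3 cells ranged from -0.16 to 0.095 for NFKB2, -0.055 to 0.064 for RELA, -0.043 to 0.38 for RELB and -0.0031 to 0.53 for NFKBIA. The difference of effects ranged from -0.038 to 0.23 for RELA and -0.24 to 0.27 for BCL3. The cause was not tested.

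With the replicate number as a block, 6 of the 9 genes were called in vector cells against culture (NFKBIA joined, limma adjusted p = 0.0395) and 4 in JMJD3 cells. The arrays share only a number, and same-numbered deviations correlated at 0.046 to 0.37 over the 6 pairs of groups. Over all genes the counts ran over the alternatives from 0 to 44 (11 as reported) for JMJD3 against vector in cultured cells, 15 to 426 (102) in tumor-dissociated cells, 39 to 1307 (740) for tumor-dissociated against cultured JMJD3 cells, 348 to 1693 (1258) for vector cells and 0 to 69 (13) for the difference of effects. TNFAIP2 was not tested when every array had to exceed background, and the difference of effects needs all groups, so a fit of only the groups compared was not run.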
